A study of Homo sapiens with 29 samples.

Results

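The feedback genes of RAS-ERK signalling were described in IMR90 ER:RAS cells, 10 genes out of 28266 gene symbols in the count table. They were taken by name: the phosphatase genes DUSP4, DUSP5 and DUSP6, the Sprouty genes SPRY2 and SPRY4, the related genes SPRED1 and SPRED2, the ETS transcription factor genes ETV4 and ETV5, and PHLDA1. All 10 were among the 13136 genes with enough counts to be tested. HRAS and ESR1 were followed beside them. IMR90 cells are human lung fibroblasts, and the ER:RAS derivative was made by infection with a retrovirus carrying oncogenic RAS (G12V) fused to the estrogen receptor, a protein that is switched on by 4-hydroxytamoxifen (4OHT). All groups carried this construct. RNA was taken on day 7. DMSO_siNT cells received the solvent and non-targeting siRNA and kept growing, 4OHT_siNT cells received 4OHT and non-targeting siRNA and entered oncogene-induced senescence, and 4OHT_siSMARCA4 cells received 4OHT and siRNA against SMARCA4, the BRG1 ATPase of the SWI/SNF chromatin remodelling complex. In each arm 2 siRNAs were used, numbered 2 and 4, and each number had 3 libraries, which made 6 libraries per group and 18 in all. A single cell line was used, and the labels do not say which libraries came from separate cultures, so the spread between libraries may be technical.

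Growth factor receptors switch RAS on, and RAS drives the kinases RAF, MEK and ERK in turn. ERK activity then raises the transcription of genes that damp the same cascade. DUSP proteins remove the activating phosphates from ERK and related kinases, Sprouty proteins act between the receptor and RAS or RAF, and SPRED proteins bring the RAS GTPase-activating protein neurofibromin to RAS at the membrane. ETV4 and ETV5 belong to the PEA3 subfamily of ETS factors and are transcriptional outputs of the pathway rather than brakes on it. PHLDA1 is a pleckstrin homology-like protein induced by growth factors. Several of these genes are used together as readouts of ERK output in tumours.

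Total counts per library ranged from 9657309 to 18039313. Levels are CPM on the TMM scale, which is counts divided by the effective size of the library and corrects for library size and composition. The libraries carry a set name ending in V or VM, whose meaning is not stated, and the sets were unevenly spread. The VM sets held 3 of the 6 DMSO_siNT libraries, all 6 of 4OHT_siNT and 2 of 4OHT_siSMARCA4, where 1 more library had a column header that names set 1VM but matches no sample title. It is kept apart from the VM sets. One library stood apart. DMSO_siNT 4-2V (siRNA 4, set 2V) had 29.5 CPM of ESR1 (247 counts) against 1034 to 1316 CPM in the other 5 DMSO_siNT libraries, and 436 CPM of HRAS against 2165 to 2852 CPM. It also had the fewest total counts and the most genes detected, 17915. The label calls it an IMR90 ER:RAS library like the rest, and values without it are given beside the main results that it touches. All 8 fibroblast markers examined had a mean above 1 CPM in every group, and none of the 3 leukocyte or 3 NK cell markers did. The summed fibroblast marker level ranged from 11448 to 31306 CPM for growing cells, from 14920 to 19815 CPM for senescent cells with control siRNA and from 8627 to 12575 CPM with SMARCA4 siRNA. The low end for growing cells was DMSO_siNT 4-2V. In DMSO_siNT COL1A1 was at 3155, 11637 and 14727 CPM (lowest, median, highest) and COL1A2 at 2585, 6964 and 8434 CPM, both lowest in 4-2V. The sum over 5 epithelial markers was 103 to 144, 62.4 to 78.9 and 34.1 to 57.0 CPM in the same order of groups. The part of either difference in the results below was not tested, and in such bulk samples fewer cells of a type and less RNA per cell cannot be told apart.

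**Figure D1:**
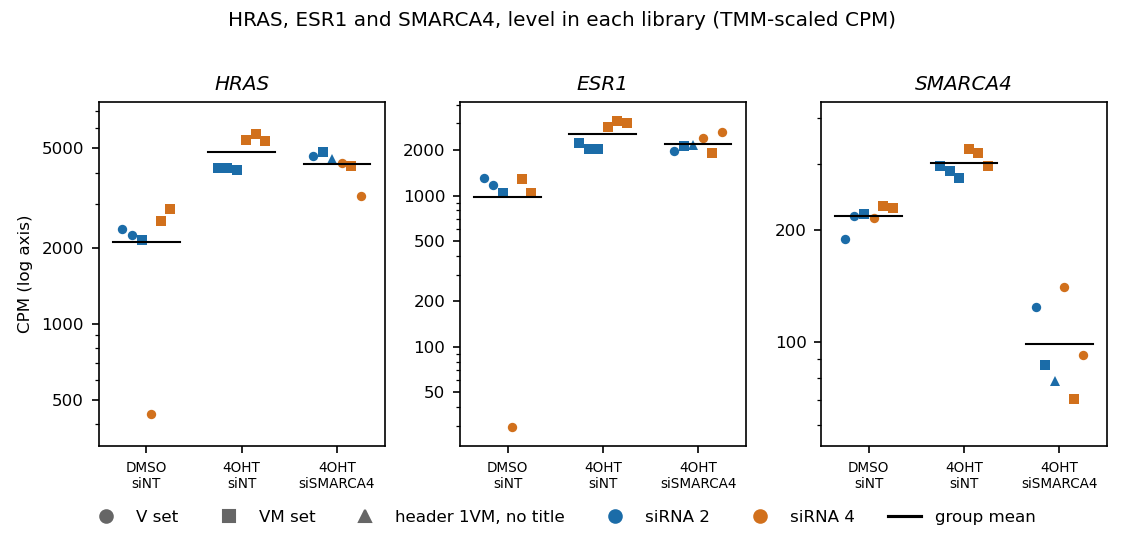
Level of HRAS, ESR1 and SMARCA4 in each of the 18 libraries, in CPM on a log axis, by group. Colour gives the siRNA number, shape the set and the bar the group mean; DMSO_siNT 4-2V lies far below its group for HRAS and ESR1, and SMARCA4 is lowest in the knockdown libraries.

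HRAS and ESR1 were examined first, since the counts of these symbols can hold reads of the ER:RAS construct as well as of the cell's own genes, which the table does not separate. HRAS was at 436, 2323 and 2852 CPM (lowest, median, highest) in DMSO_siNT and at 4094, 4756 and 5712 CPM in 4OHT_siNT. All 4OHT_siNT libraries lay above all DMSO_siNT libraries, with a log2 fold change of 1.19 ± 0.28 (SE; edgeR adjusted p = 0.00146). Without DMSO_siNT 4-2V the change was 0.98 ± 0.12. ESR1 was at 29.5, 1101 and 1316 CPM in DMSO_siNT and at 2021, 2527 and 3111 CPM in 4OHT_siNT. Its log2 fold change was 1.37 ± 0.46 (adjusted p = 0.0172), and 1.13 ± 0.13 without the outlying library. The ESR1 call was narrowly lost with only these 2 groups in the fit (1.39, adjusted p = 0.05) and was lost with siNT 4 alone (1.94, 0.055). SYNE1 lies over ESR1 on the opposite strand with up to 835 counts, so the few ESR1 counts of 4-2V may include its reads. In 4OHT_siSMARCA4 both genes overlapped with 4OHT_siNT. HRAS differed by −0.16 (95% interval −0.73 to 0.42; edgeR adjusted p = 0.778) and ESR1 by −0.20 (−1.15 to 0.74; adjusted p = 0.831). Without DMSO_siNT 4-2V in the fit these were −0.17 (−0.41 to 0.07; edgeR adjusted p = 0.3) and −0.21 (−0.47 to 0.04; adjusted p = 0.217). SMARCA4 itself was at 70.4, 89.9 and 141 CPM in the knockdown libraries against 275, 297 and 330 CPM in 4OHT_siNT, without overlap.

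To ask whether RAS activation changed the feedback genes, 4OHT_siNT was compared with DMSO_siNT. Of the 10 genes, 9 were higher in 4OHT_siNT and none lower. Across all genes tested, 23.9% were called higher and 28.9% lower. The median log2 fold change over the 10 genes was 1.33, beside −0.05 over all genes tested. The 6 libraries of 4OHT_siNT lay entirely above those of DMSO_siNT for 8 of the 10 genes, where 33.8% of all genes had groups that did not overlap in either direction. The exceptions were SPRED1 and ETV5.

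**Figure D2:**
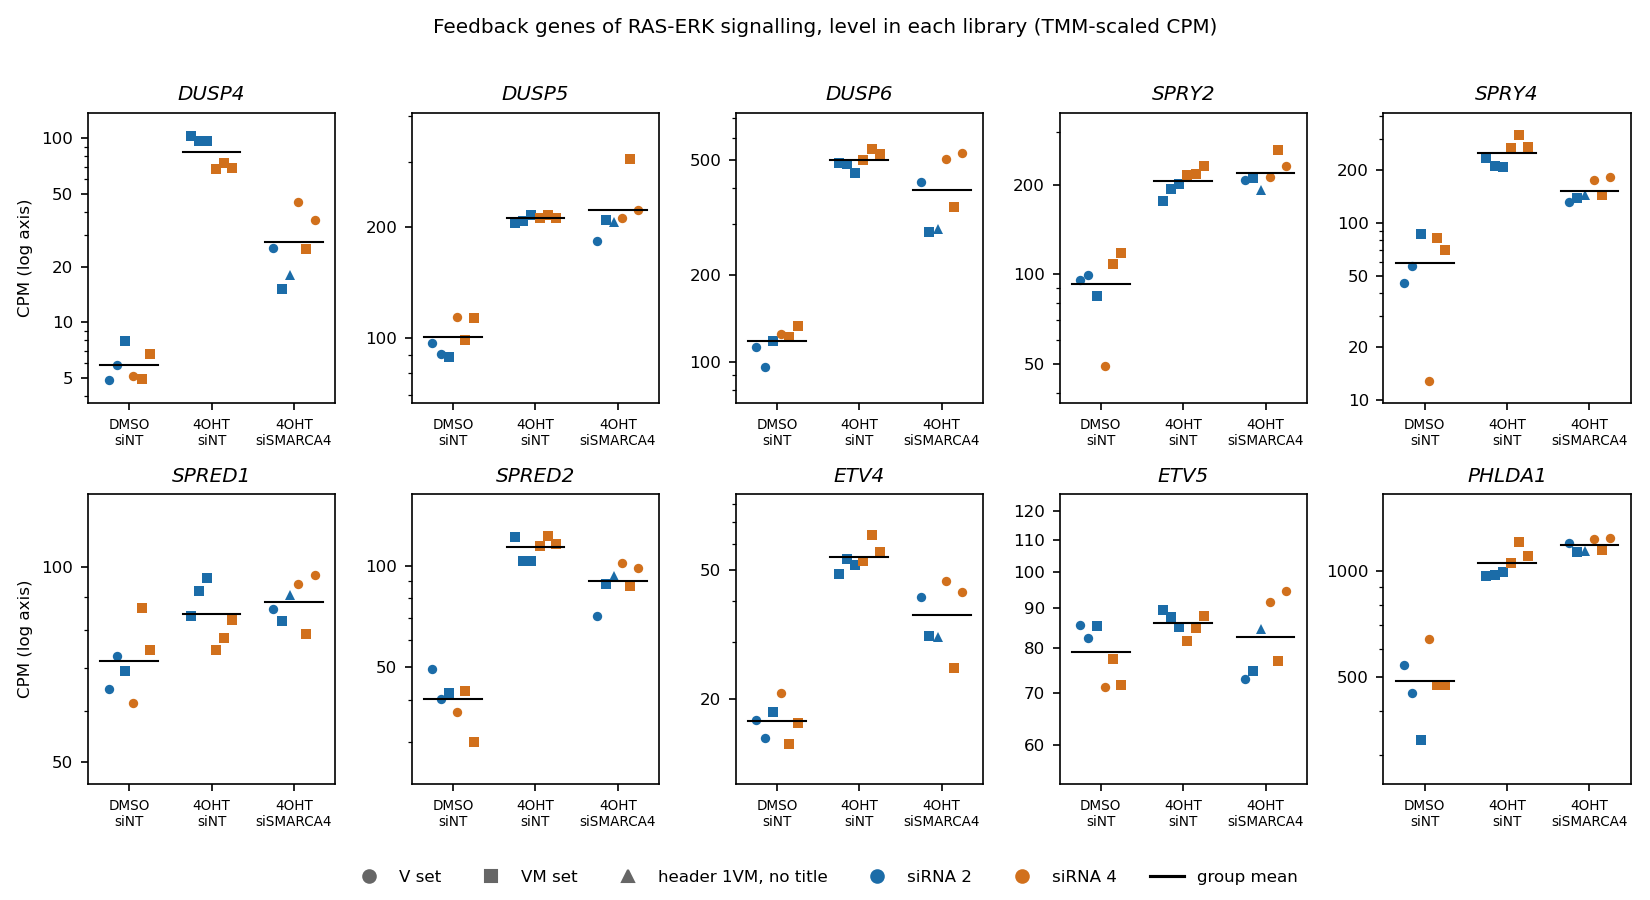
Level of each of the 10 feedback genes in every library, in CPM on log axes that differ between panels. Colour gives the siRNA number, shape the set and the bar the mean of 6 libraries; DUSP4 rises from a mean of 5.90 to 84.5 CPM with 4OHT and stands at 27.5 CPM with SMARCA4 siRNA, while ETV5 stays between 71.2 and 94.6 CPM in all libraries.

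Among the phosphatases, DUSP4 rose the most. DUSP4, a nuclear phosphatase that acts on ERK, JNK and p38, lies on the minus strand of chromosome 8, 29333064 to 29350684 (GRCh38, GENCODE 44; the counts themselves carry no coordinates). It was at 4.85, 5.49 and 7.93 CPM (lowest, median, highest) in DMSO_siNT, with 43 to 111 counts per library, and at 68.6, 84.8 and 103 CPM in 4OHT_siNT. The groups were far apart, and DUSP4 rose by 3.83 ± 0.24 on the log2 scale (SE; edgeR adjusted p = 1.58e-10). DUSP6, a cytoplasmic phosphatase that is selective for ERK, lies on chromosome 12, 89347235 to 89352501, minus strand. It was at 95.6, 120.0 and 133 CPM in DMSO_siNT and at 452, 495 and 548 CPM in 4OHT_siNT, a change of 2.09 ± 0.15 (adjusted p = 9.13e-10). DUSP5, the nuclear counterpart that is also selective for ERK, lies on chromosome 10, 110497907 to 110511533, plus strand. It went from 88.5, 97.7 and 114 CPM to 204, 211 and 215 CPM, and the 4OHT_siNT libraries had an SD of 4.34 CPM. Its log2 fold change was 1.07 ± 0.11 (adjusted p = 1.4e-07).

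Both Sprouty genes rose. SPRY4 lies on chromosome 5, 142310427 to 142326455, minus strand, and overlaps with SPRY4-AS1, which had at most 60 counts. Its DMSO_siNT libraries were at 12.8, 63.4 and 87.2 CPM, the lowest being 4-2V with 107 counts, and the 4OHT_siNT libraries at 207, 249 and 313 CPM. SPRY4 rose by 2.07 ± 0.29 (SE; edgeR adjusted p = 5.8e-06), 1.87 ± 0.16 without DMSO_siNT 4-2V and 1.65 ± 0.14 in the VM sets alone. SPRY2 lies on chromosome 13, 80335976 to 80341126, minus strand, and was at 49.1, 97.2 and 118 CPM in DMSO_siNT, where 4-2V was again the lowest. In 4OHT_siNT it was at 176, 208 and 232 CPM, higher by 1.15 ± 0.15 on the log2 scale (adjusted p = 3.7e-06), and by 1.03 ± 0.10 without 4-2V.

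Of the SPRED genes, SPRED2 gave the larger change. SPRED2, on chromosome 2, 65310851 to 65432637, minus strand, went from 30, 41.1 and 49.4 CPM in DMSO_siNT to 103, 115 and 122 CPM in 4OHT_siNT, and its groups were well separated. The change was 1.5 ± 0.11 on the log2 scale (edgeR adjusted p = 1.89e-09). SPRED1, on chromosome 15, 38252836 to 38357249, plus strand, was at 61.7, 71.0 and 86.5 CPM in DMSO_siNT and at 74.4, 83.5 and 96.1 CPM in 4OHT_siNT, so the groups overlapped. Its change of 0.24 ± 0.10 was at the edge of the test (edgeR adjusted p = 0.0413). The call was lost in the VM sets alone (0.14, edgeR adjusted p = 0.24) and with the library headed 1VM added to them (0.14, 0.236). It was lost with siNT 4 alone (0.09, adjusted p = 0.619) and with only these 2 groups in the fit (0.25, 0.059). It was also lost with all genes of at least 1 count tested (0.27, adjusted p = 0.0584), and when any 1 of 6 libraries was left out. Those were DMSO_siNT 2-1V (0.22, adjusted p = 0.0802), 2-2V (0.25, 0.051) and 2-2VM (0.23, 0.0636), and 4OHT_siNT 2-1VM (0.25, 0.0524), 2-2VM (0.22, 0.0746) and 2-3VM (0.21, 0.0865).

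ETV4 rose and ETV5 was not called. ETV4, on chromosome 17, 43527844 to 43579620, minus strand, was at 14.5, 17 and 20.9 CPM in DMSO_siNT and at 48.6, 53.8 and 64.3 CPM in 4OHT_siNT. It rose by 1.68 ± 0.14 on the log2 scale (edgeR adjusted p = 7.74e-09). DHX8 lies over ETV4 on the opposite strand with up to 1063 counts in a library, and ETV4 had as few as 175. The kit kept strand, but whether the counting used it is not stated, so reads of these genes may be mixed. ETV5, on chromosome 3, 186046314 to 186110318, minus strand, was at 71.2, 79.9 and 85.5 CPM in DMSO_siNT and at 81.6, 86.3 and 89.4 CPM in 4OHT_siNT. The groups overlapped, and the difference was 0.12 (95% interval −0.05 to 0.30; edgeR adjusted p = 0.231). PHLDA1, on chromosome 12, 76025447 to 76031776, minus strand, had the highest level of the 10 genes per length. It went from 330, 473 and 642 CPM, the highest being DMSO_siNT 4-2V, to 969, 1021 and 1203 CPM. The change was 1.11 ± 0.12 (adjusted p = 3.92e-07), and 1.21 ± 0.10 without that library.

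Divided by the summed length of each gene's exons, the levels of different genes can be set side by side. In DMSO_siNT the order was PHLDA1 at 82.1 ± 17.4 CPM per kilobase (SD, n = 6), DUSP5 at 39.6, DUSP6 at 30.5, SPRY2 at 28.7, ETV5 at 13.7, SPRED1 at 9.24, SPRY4 at 9.03, SPRED2 at 7.29, ETV4 at 4.88 and DUSP4 at 0.811 ± 0.167. The libraries of DUSP6 and SPRY2 overlapped on this scale, as did each neighbouring pair from SPRED1 to ETV4. In 4OHT_siNT PHLDA1 stood at 177 ± 15.5 and was followed by DUSP6 at 130 ± 8.68, DUSP5 at 83.0, SPRY2 at 64.0, SPRY4 at 38.1 and SPRED2 at 20.6, and the libraries of none of these overlapped with those of the next gene. ETV4 at 15.6, ETV5 at 14.9, DUSP4 at 11.6 and SPRED1 at 10.9 CPM per kilobase came last and each overlapped with its neighbour. Thus DUSP4, which had the steepest rise, was still among the lowest of the 10 in level.

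Because 9 of the 10 genes were called in the same direction, their promoters were read. RefSeq windows (GRCh38.p14) were at hand for 6 of the genes, DUSP6, SPRY2, SPRY4, SPRED1, SPRED2 and PHLDA1, as 9 windows, and the 250 bases before each start were searched on both strands. None held the AP-1 motif TGACTCA, the cAMP response element TGACGTCA or the ETS motif CCGGAAG, which are in 4.2%, 1.65% and 8.52% of the 35116 windows of this length for all genes. The shorter ETS core CGGAA, which is contained in the longer one and was tried only after that search, is in 30.3% of all windows. It was found in the windows of DUSP6, SPRY2 and PHLDA1, and these are shown with each core, on either strand, in capitals (5′ to 3′ in the direction of the gene).
DUSP6, chr12:89352502-89352751, minus strand: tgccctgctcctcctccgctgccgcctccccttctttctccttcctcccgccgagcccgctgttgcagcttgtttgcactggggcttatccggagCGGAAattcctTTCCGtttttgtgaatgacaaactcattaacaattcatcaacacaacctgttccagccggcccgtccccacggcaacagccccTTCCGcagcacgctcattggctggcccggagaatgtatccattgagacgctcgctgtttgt
SPRY2, chr13:80341127-80341376, minus strand: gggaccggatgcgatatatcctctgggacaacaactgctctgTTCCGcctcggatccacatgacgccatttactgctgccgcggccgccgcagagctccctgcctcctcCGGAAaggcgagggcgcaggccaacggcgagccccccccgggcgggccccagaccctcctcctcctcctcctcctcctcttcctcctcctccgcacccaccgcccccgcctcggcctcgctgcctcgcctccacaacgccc
PHLDA1, chr12:76031777-76032026, minus strand: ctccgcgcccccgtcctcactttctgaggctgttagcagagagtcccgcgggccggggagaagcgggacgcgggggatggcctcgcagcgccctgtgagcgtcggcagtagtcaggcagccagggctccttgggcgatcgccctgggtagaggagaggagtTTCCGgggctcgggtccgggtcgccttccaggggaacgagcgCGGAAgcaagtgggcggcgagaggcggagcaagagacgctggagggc
DUSP6 held 3 cores, at 155 to 151, 144 to 140 and 61 to 57 bases before the start, and SPRY2 and PHLDA1 held 2 each. SPRED1, SPRED2, SPRY4 and the other 2 windows of SPRY2 held none. Of these, the SPRY4 window, the 2 of SPRY2 and the SPRED2 window at 65366779 to 65367028 lie inside the gene as located above. In the SPRY4 window 170 bases are in an exon of a SPRY4 transcript. No match in these windows does not describe the bases before the outermost start of the gene. In the other SPRED2 window 38 bases are in a SPRED2 exon. The DUSP6 window lies over all its 250 bases in an exon of a long non-coding RNA gene on the opposite strand. A match describes letters and shows no binding, and no match says only that these letters are not in the window.

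To ask whether SMARCA4 knockdown in senescent cells changed the same genes, 4OHT_siSMARCA4 was compared with 4OHT_siNT, the same 4OHT_siNT libraries as in the first comparison. DUSP4 and ETV4 were lower, 2 of the 10 genes, and none was higher. Across all genes tested, 5.65% were called lower and 4.99% higher. Libraries of the groups did not overlap for 4 of the 10 genes, DUSP4, ETV4, SPRY4 and SPRED2, all lower in the knockdown, against 11.4% of all genes. The median log2 fold change was −0.20 over the 10 genes and 0.01 over all genes tested.

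DUSP4 was at 15.1, 25.2 and 45.1 CPM (lowest, median, highest) with SMARCA4 siRNA and at 68.6, 84.8 and 103 CPM without. The highest knockdown library lay below the lowest control library, and DUSP4 fell by 1.62 ± 0.22 on the log2 scale (SE; edgeR adjusted p = 0.000122). Leaving out any 1 library gave −1.83 to −1.5. ETV4 was at 24.9, 36.3 and 46.1 CPM in the knockdown and at 48.6, 53.8 and 64.3 CPM in the control, a narrow gap. It fell by 0.60 ± 0.14 (edgeR adjusted p = 0.00775), and the call was lost with siNT 4 alone as control (−0.69, adjusted p = 0.057) and with siSMARCA4_4 alone (−0.53, adjusted p = 0.148). DHX8, the gene over ETV4, carries the same limit here.

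SPRY4 was at 131, 144 and 181 CPM in the knockdown, below the 207 CPM of the lowest control library. The difference of −0.71 ± 0.28 did not pass over 13136 genes (edgeR adjusted p = 0.109). All 3 groups share 1 estimate of the spread in this test, so the DMSO_siNT library 4-2V, where SPRY4 was at 12.8 CPM, enters the error of a comparison it is not part of. Without 4-2V the difference was −0.72 ± 0.14 (adjusted p = 0.00105). It was also called with only the 2 groups compared in the fit (−0.71, edgeR adjusted p = 0.000296) and with siNT 2 alone as control (−0.51, adjusted p = 0.0405). The SPRY4 difference was not called by DESeq2, with median-of-ratios scaling, with siNT 4 alone as control or with either SMARCA4 siRNA alone. SPRED2 was at 71.1, 90.5 and 102 CPM in the knockdown against 103 CPM for the lowest control library. Its difference of −0.33 ± 0.11 (edgeR adjusted p = 0.0601) was called without DMSO_siNT 4-2V (−0.34, adjusted p = 0.0169), 2-1V (−0.34, 0.0399) or 4-3VM (−0.34, 0.0296), and without 4OHT_siSMARCA4 4-2V (−0.38, 0.037). DESeq2 called it on all 18 libraries (−0.35, adjusted p = 0.0181), and so did edgeR with median-of-ratios scaling (−0.35, 0.0497). Without DMSO_siNT 4-2V, 4 of the 10 genes were called lower, beside 12.9% of all genes.

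DUSP6 spread widely in the knockdown, at 283, 383 and 532 CPM, and overlapped with the control. Its difference was −0.34 ± 0.14 (edgeR adjusted p = 0.15), and it was called without 4OHT_siSMARCA4 4-3V (−0.44, adjusted p = 0.0498) and with siSMARCA4_2 alone (−0.61, 0.0153). The remaining 5 genes overlapped with the control and were not called. DUSP5 differed by 0.08 (95% interval −0.15 to 0.31), SPRY2 by 0.09 (−0.23 to 0.41), SPRED1 by 0.06 (−0.14 to 0.26), ETV5 by −0.06 (−0.24 to 0.12) and PHLDA1 by 0.17 (−0.09 to 0.43) on the log2 scale.

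**Figure D3:**
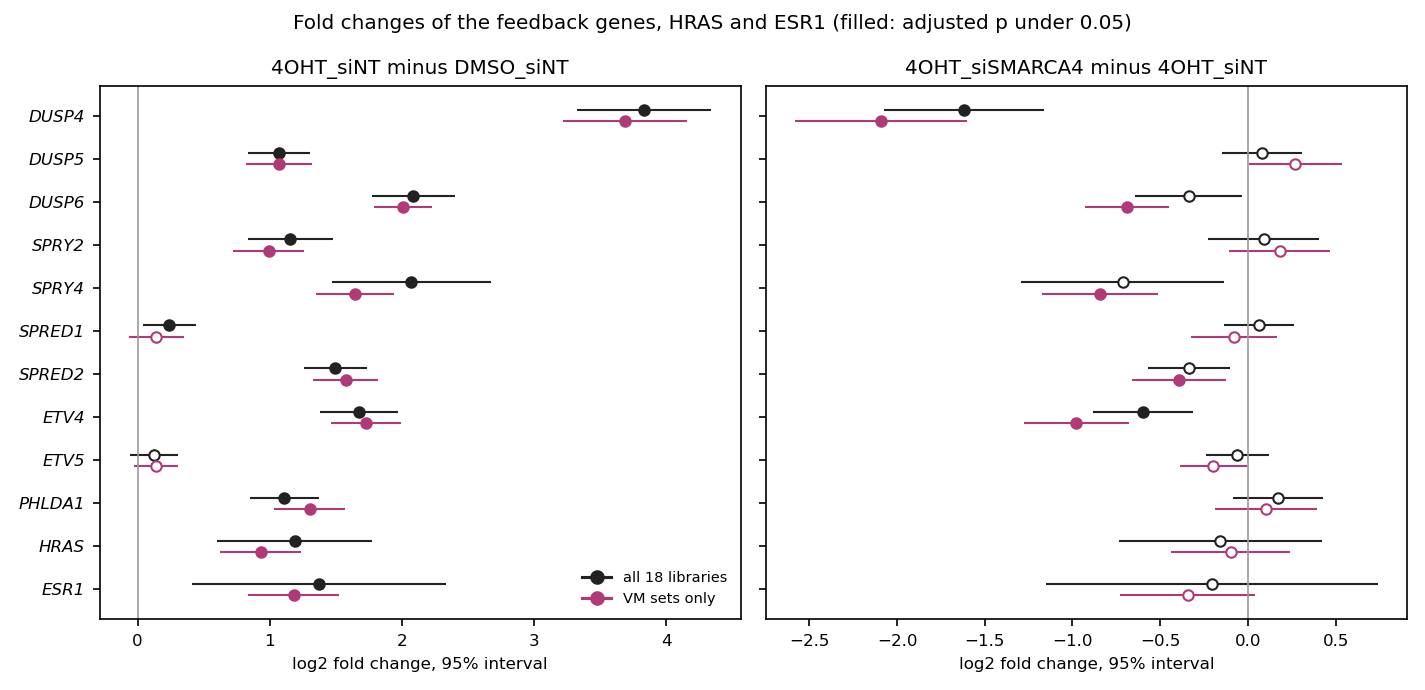
Log2 fold changes with 95% intervals for the 10 feedback genes, HRAS and ESR1, for 4OHT_siNT minus DMSO_siNT (left) and 4OHT_siSMARCA4 minus 4OHT_siNT (right), with all 18 libraries and with VM sets only. Filled points have an edgeR adjusted p under 0.05; on the right 2 feedback genes are filled with all libraries and 5 with VM sets.

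All control libraries of this comparison were from VM sets, while the knockdown held 3 V, 2 VM and the library with the unmatched 1VM header, so V and knockdown can be told apart only within VM sets. There, with 2 knockdown libraries against 6, 5 of the 10 genes were called lower, DUSP4 (−2.09 ± 0.23, edgeR adjusted p = 3.24e-05), ETV4 (−0.98 ± 0.14, 0.000249), SPRY4 (−0.84 ± 0.15, 0.00154), DUSP6 (−0.69 ± 0.11, 0.000673) and SPRED2 (−0.39 ± 0.13, 0.0379), beside 12.2% of all genes. With the library headed 1VM added to the VM sets, 3 knockdown libraries against 6, the same 5 genes were called lower, from −2.14 ± 0.19 for DUSP4 to −0.36 ± 0.10 for SPRED2 (edgeR adjusted p = 0.0159), beside 16.7% of all genes. In the VM sets alone HRAS and ESR1 were not called (−0.10, adjusted p = 0.7, and −0.34, adjusted p = 0.189). In the comparison of 4OHT_siNT with DMSO_siNT the VM sets gave 8 of the 10 genes higher, all but SPRED1 and ETV5, beside 25.6% of all genes.

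Within the knockdown the set and the SMARCA4 level left moved together with several of these genes. SMARCA4 was at 92.7, 125 and 141 CPM in the V libraries, at 70.4 and 87.0 CPM in the VM libraries and at 78.8 CPM in the library headed 1VM. DUSP6 was at 420, 505 and 532 CPM in the V libraries, at 283 and 346 CPM in the VM libraries and at 289 CPM in the other. ETV4 was at 41.4, 42.6 and 46.1 CPM, at 24.9 and 31.3 CPM and at 31.0 CPM in the same order. All V libraries thus lay above the rest for all 3 genes. The share of all genes with such a gap was not counted. For DUSP4 the V libraries were at 25.4, 36 and 45.1 CPM, the VM libraries at 15.1 and 25.1 CPM and the other at 18.2 CPM, which barely separates them. PHLDA1 was at 1199, 1228 and 1238 CPM in V libraries, at 1132 and 1146 CPM in VM libraries and at 1137 CPM in the other. This was a small gap in the same direction. In contrast, SPRY2 overlapped, at 208, 211 and 231 CPM in V libraries, at 211 and 261 CPM in VM libraries and at 191 CPM in the other. DUSP5, SPRY4, SPRED1, SPRED2 and ETV5 also overlapped between the V libraries and the rest. The part of the sets and of the SMARCA4 level in the knockdown results was not tested beyond the VM sets.

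Set against growing cells, 4OHT_siSMARCA4 still had 9 of the 10 genes higher than DMSO_siNT and none lower, beside 23.3% higher and 27.3% lower among all genes. This comparison shares its libraries with the other group comparisons and is no separate evidence. DUSP4 was higher by 2.22 ± 0.23 on the log2 scale (edgeR adjusted p = 1.44e-07) where the control siRNA gave 3.83, and ETV4 by 1.08 ± 0.14 where it gave 1.68. DUSP6 was higher by 1.75 ± 0.15, SPRY4 by 1.36 ± 0.28 (1.15 ± 0.15 without DMSO_siNT 4-2V), SPRED2 by 1.16 ± 0.11, PHLDA1 by 1.28 ± 0.13, SPRY2 by 1.24 ± 0.15 and DUSP5 by 1.15 ± 0.11. SPRED1 was higher by 0.30 ± 0.10 (adjusted p = 0.0125) and lost its call in VM sets (0.06, adjusted p = 0.725) and with siSMARCA4_2 alone (0.28, 0.0689). ETV5 was not called (0.06, 95% interval −0.11 to 0.24).

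The control siRNAs were then compared, since they gave different HRAS and ESR1 levels under 4OHT. HRAS was at 4094, 4166 and 4183 CPM with siNT 2 and at 5329, 5394 and 5712 CPM with siNT 4. ESR1 was at 2021, 2031 and 2213 CPM with siNT 2 and at 2841, 3012 and 3111 CPM with siNT 4. The 3 libraries of each siRNA were close together and apart from the others, but edgeR called neither gene over 13659 genes (log2 fold change siNT 2 minus siNT 4 of −0.40, 95% interval −1.26 to 0.45, and −0.52, −1.93 to 0.89), in a fit whose spread includes DMSO_siNT 4-2V. Without that library edgeR called both, HRAS at −0.40 (−0.63 to −0.17; adjusted p = 0.0465) and ESR1 at −0.51 (−0.78 to −0.25; adjusted p = 0.0302).

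Of the 10 feedback genes, none was called between siNT 2 and siNT 4 in 4OHT cells by edgeR or by DESeq2. An edgeR unadjusted p under 0.05 was found for 1 of the 10, beside 1447 of 13659 genes tested. Among all genes 0.0732% were called. Without DMSO_siNT 4-2V none of the 10 was called by edgeR, 4 had an unadjusted p under 0.05, and 4.24% of all genes were called. For this and the other siRNA fits without 4-2V, the share of all genes at an unadjusted p under 0.05 was not counted. The libraries did not overlap for 6 of the 10 genes, where 37.1% of all genes had such a gap. SPRY4 was at 207, 210.1 and 232 CPM with siNT 2 and at 265, 270 and 313 CPM with siNT 4. DUSP6 (476 and 525 CPM on average), SPRY2 (190 and 221) and PHLDA1 (978 and 1119) were also lower with siNT 2, in step with HRAS and ESR1. DUSP4 ran the other way, at 96.2, 96.6 and 103 CPM with siNT 2 and at 68.6, 69.4 and 73.3 CPM with siNT 4 (0.48 ± 0.21, edgeR unadjusted p = 0.037, adjusted p = 0.429), and SPRED1 did too, at 90.7 and 78.4 CPM on average. The 3 libraries with less HRAS and ESR1 thus had the higher DUSP4 values, a difference that did not pass the test over all genes. The part of the construct level in these differences was not tested.

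In DMSO cells none of the 10 genes was called between siNT 2 and siNT 4 by either tool, and 0.0512% of all genes were called. None of the 10 had an edgeR unadjusted p under 0.05, beside 3872 of 13659 genes tested. Without 4-2V, which leaves 2 libraries with siNT 4, edgeR called none of the 10, 1 had an unadjusted p under 0.05, and 0.26% of all genes were called. Libraries did not overlap for 3 genes, DUSP5 and DUSP6 lower and ETV5 higher with siNT 2, beside 20.1% of all genes. DUSP4 was at 4.85, 5.85 and 7.93 CPM with siNT 2 and at 4.92, 5.14 and 6.70 CPM with siNT 4. It was then tested whether the 4OHT effect differed between siNT 2 and siNT 4. None of the 10 genes had an edgeR unadjusted p under 0.05, beside 3258 of 13659 genes tested. This test called none of the 10 genes with either tool, and 0% of all genes. Its intervals were wide: the effect with siNT 2 minus that with siNT 4 was 0.35 for DUSP4 (95% interval −0.34 to 1.03), −0.57 for SPRY4 (−1.78 to 0.64), −0.61 for HRAS (−1.82 to 0.61) and −1.08 for ESR1 (−3.07 to 0.91). Without 4-2V the values were 0.40 for DUSP4 (−0.31 to 1.10), −0.11 for SPRY4 (−0.63 to 0.41), −0.14 for HRAS (−0.48 to 0.20) and −0.52 for ESR1 (−0.92 to −0.12; edgeR adjusted p = 0.122). None of the 10 genes was called in that fit, 1 had an unadjusted p under 0.05, SPRED1 (0.44, adjusted p = 0.0977), and 0.759% of all genes were called.

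**Figure D4:**
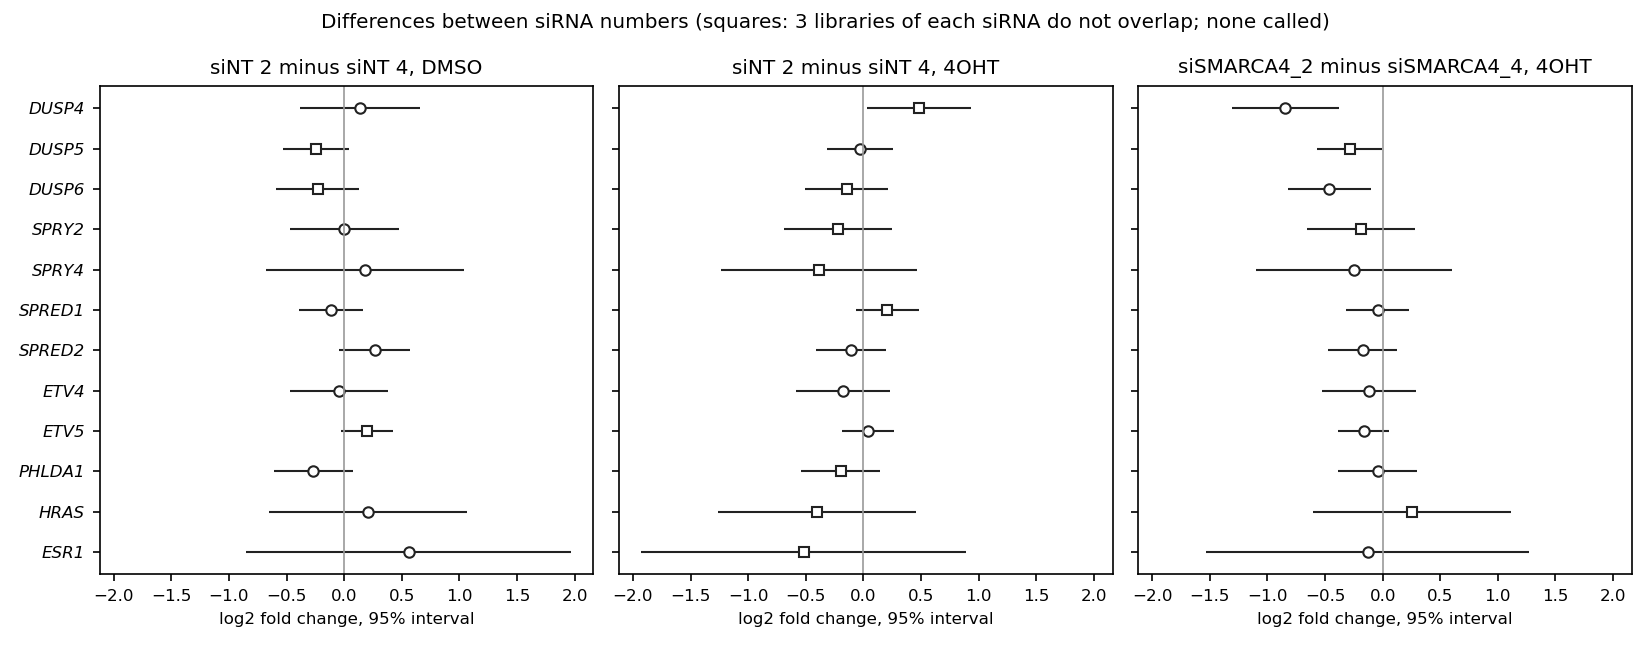
Log2 fold changes with 95% intervals between siRNA 2 and siRNA 4, in DMSO cells and 4OHT cells with non-targeting siRNA and in 4OHT cells with SMARCA4 siRNA. Squares mark genes whose 3 libraries per siRNA do not overlap; no gene shown was called by edgeR with all 18 libraries, and DUSP4 lies above 0 between the siNT siRNAs in 4OHT and below 0 between the SMARCA4 siRNAs.

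Between the SMARCA4 siRNAs none of the 10 genes was called by either tool, and 0.00732% of all genes were called. An edgeR unadjusted p under 0.05 was found for 3 of the 10, beside 878 of 13659 genes tested. All 10 estimates were below 0, that is lower with siSMARCA4_2, and they rest on the same libraries. Over all genes tested, 6882 of 13659 estimates were above 0. DUSP4 was at 15.1, 18.2 and 25.4 CPM with siSMARCA4_2 and at 25.1, 36 and 45.1 CPM with siSMARCA4_4 (−0.84 ± 0.22, edgeR unadjusted p = 0.00138, adjusted p = 0.378), so the siRNAs overlapped by 1 library. Without DMSO_siNT 4-2V in the fit the DUSP4 difference was −0.86 ± 0.20 (edgeR adjusted p = 0.0641). None of the 10 genes was called there, and 0.391% of all genes were. An unadjusted p under 0.05 was found for 4 of the 10, with no count over all genes to set beside it. DUSP6 averaged 331 and 461 CPM (−0.46 ± 0.17) and DUSP5 199 and 246 CPM (−0.29 ± 0.13). Libraries did not overlap for DUSP5 and SPRY2, beside 15.3% of all genes. SMARCA4 averaged 96.8 CPM with siSMARCA4_2 and 101 CPM with siSMARCA4_4, and HRAS 4678 and 3951 CPM. The siSMARCA4_4 libraries included 2 of the 3 V libraries, so the siRNA and the set are partly mixed.

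The paralogs of the feedback genes were read next. For these and the lists that follow, the shares of all genes called with 4OHT were 23.9% higher and 28.9% lower. With SMARCA4 siRNA they were 4.99% higher and 5.65% lower. Of 7 other DUSP genes for MAP kinase phosphatases, 6 were tested, and in 4OHT_siNT against DMSO_siNT 1 was called higher and 1 lower. DUSP16, which acts on JNK and p38, rose by 0.99 ± 0.15 (12.5 to 24.9 CPM on average) and DUSP10, with the same targets, fell by 1.34 ± 0.11 on the log2 scale (78.1 to 30.9 CPM). DUSP1, a classical early-response phosphatase, was at 262 and 227 CPM (−0.20, edgeR adjusted p = 0.222), DUSP2 at 2.57 and 1.94 CPM (−0.41, 0.233) and DUSP7, an ERK phosphatase close to DUSP6, at 25.0 and 26 CPM (0.05, 0.865). DUSP9 had a mean of at most 0.062 CPM in any group and was not tested. Among the other Sprouty and SPRED genes SPRED3 rose by 1.4 ± 0.20 (22.4 to 59.5 CPM), while SPRY1 (4.61 and 3.32 CPM, adjusted p = 0.297) and SPRY3 (1.96 and 2.19 CPM, 0.7) were low and not called. With SMARCA4 siRNA only DUSP8, a phosphatase of JNK and p38, was called in these lists, higher by 0.62 ± 0.16 (edgeR adjusted p = 0.0152). SPRED3 was at 41.5 CPM (−0.52, adjusted p = 0.107), SPRY1 at 1.94 CPM (−0.77, 0.199), SPRY3 at 2.26 CPM (0.05, 0.94), DUSP1 at 263 CPM (0.21, 0.371), DUSP7 at 21.5 CPM (−0.27, 0.465) and DUSP2 at 1.61 CPM (−0.26, 0.633). SPRED3 was at 9.32, 22.7 and 28.9 CPM (lowest, median, highest) in DMSO_siNT, the lowest being 4-2V, which enters the shared spread here too. Over all genes the share called lower with SMARCA4 siRNA was 12.9% without 4-2V, beside 5.65% with it. Calls in these lists without that library are not given.

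Of 19 other ETS factor genes, 15 were tested. In 4OHT_siNT against DMSO_siNT 6 were higher and 3 lower, beside 23.9% and 28.9% of all genes. The largest rises were those of EHF, an epithelial ETS factor, by 6.37 ± 0.35 (0.878 to 75.6 CPM), ETS2, itself a target of ERK phosphorylation, by 1.27 ± 0.14 and ETV3, a repressor, by 0.98 ± 0.16. ELK3 fell by 0.70 ± 0.10, ELF1 by 0.58 ± 0.20 and ELF2 by 0.37 ± 0.14 on the log2 scale. ETV1, the third PEA3 gene beside ETV4 and ETV5, was at 42.2 and 42.5 CPM (0.01, edgeR adjusted p = 0.935). With SMARCA4 siRNA ETS2 was higher by a further 0.63 ± 0.14 (adjusted p = 0.00529), FLI1 lower by −0.62 ± 0.19 (0.038), and ETV1 at 46.4 CPM (0.13, 0.555). So of the PEA3 genes ETV4 was called in both comparisons, and ETV1 and ETV5 in neither; the differences between these genes were not tested.

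Genes of the cascade itself were called in both directions. Of 17 RAS-ERK cascade genes 5 were higher in 4OHT_siNT against DMSO_siNT and 3 lower, beside 23.9% and 28.9% of all genes. Besides HRAS these included the adaptor SHC1 (0.75 ± 0.16) and the kinase MAP2K2 (0.46 ± 0.09) among those higher, and NRAS (−0.69 ± 0.10) and the adaptor GAB1 (−0.56 ± 0.17) were among those lower. With SMARCA4 siRNA NRAS was higher (0.72 ± 0.10, edgeR adjusted p = 0.000138), at 100.2 CPM beside 98 in DMSO_siNT, and MAPK3, the gene of ERK1, lower (−0.47 ± 0.11, 0.0124). Of 7 RAS GTPase-activating protein genes 4 were higher with 4OHT, with RASA3 (0.61 ± 0.18), RASA1 (0.60 ± 0.10) and NF1 (0.56 ± 0.23, adjusted p = 0.0468) the largest, and RASA2 was higher with SMARCA4 siRNA (0.77 ± 0.13). In DMSO_siNT RASA3 was at 37.2, 106 and 114 CPM (lowest, median, highest) and NF1 at 24.1, 65.3 and 83.1 CPM, both lowest in 4-2V. Of 11 other negative regulators, including SPRED3, 7 were higher with 4OHT, led by ERRFI1, an inhibitor of the EGF receptor (1.80 ± 0.11, 58.6 to 203 CPM), SPRED3 and the ubiquitin ligase gene CBLB (1.35 ± 0.22). PEBP1, a RAF inhibitor, and IL17RD were lower (−0.85 ± 0.23 and −0.61 ± 0.20). PEBP1 was at 248, 261 and 801 CPM (lowest, median, highest) in DMSO_siNT, the highest being 4-2V, so the size of its change depends on that library. In the fit of all libraries, 4-2V included, edgeR called none of the 11 with SMARCA4 siRNA. An unadjusted p under 0.05 was found for 4 of the 11, beside 3244 of 13136 genes tested.

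The immediate-early genes, which ERK switches on within minutes, included 15 genes. In 4OHT_siNT against DMSO_siNT 10 were higher and 4 lower, beside 23.9% and 28.9% of all genes. EGR3 rose by 3.73 ± 0.24 (1.28 to 17.4 CPM), EGR2 by 3.19 ± 0.34 (1.14 to 10.4 CPM) and IER3 by 3.17 ± 0.17 (136 to 1223 CPM). KLF4 (−2.60 ± 0.27), ZFP36 (−1.14 ± 0.18) and FOS (−0.67 ± 0.22) were lower. SMARCA4 siRNA raised IER3 (0.57 ± 0.16, edgeR adjusted p = 0.0274) and HBEGF, an EGF receptor ligand (0.78 ± 0.22, 0.0259), and lowered EGR2 (−1.06 ± 0.30, 0.026). Of 7 kinases that ERK activates, 4 were higher with 4OHT, among them RPS6KA3 (1.65 ± 0.14), RPS6KA1 (1.4 ± 0.25) and MKNK2 (0.95 ± 0.14), and RPS6KA2 was lower (−2.33 ± 0.24, 81.7 to 16.3 CPM). RPS6KA3 was the only one called with SMARCA4 siRNA, higher by 0.61 ± 0.13. A published score of MAPK activity combines 7 of the feedback genes with CCND1, EPHA2 and EPHA4. Of these 3 genes EPHA2 was higher with 4OHT (0.66 ± 0.22, adjusted p = 0.0171) and EPHA4 lower with SMARCA4 siRNA (−1.35 ± 0.32, 38.5 to 15.1 CPM, adjusted p = 0.00999). EPHA2 was at 34.4, 131 and 160 CPM (lowest, median, highest) in DMSO_siNT, the lowest being 4-2V.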

How the data were processed

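RNA sequencing was done on 18 libraries of IMR90 ER:RAS cells. According to the study's methods, strand-specific libraries of polyadenylated RNA were aligned with STAR, and the submitters' processing notes list STAR 2.7.8a, DESeq2 1.36.0 and hg38. The counting program and its strand setting are not given in the sources used here. The authors deposited counts of reads per gene symbol without normalization, in 36 columns, and the 2 lanes of each library were summed. Of 29 labelled samples 17 matched a library, and the others were not analysed here. A further column named 4OHT_siSMARCA4 with siRNA 2 and set 1VM, which no sample title gives, and it was kept as a replicate of its group and out of the VM sets.

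Genes were filtered with filterByExpr (minimum count 10), scaled with TMM and compared by quasi-likelihood F-tests in edgeR 4.0.16 (limma 3.58.1, R 4.3.3) in 1 fit of the 3 groups, or of 6 levels for siRNA numbers, with Benjamini-Hochberg adjustment over all genes tested and a call at an adjusted p under 0.05. The common coefficient of variation was 23.3%. Lanes of a library gave a chi-square per degree of freedom of 1.19 to 1.27 and libraries of a group 2.33 to 315, so none was a duplicate. The tests were checked on simulated data. Per-length levels used exon unions of GENCODE 44.

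The 10 genes, the pathway lists and the tests were chosen with earlier results of these data known. Of each list at most 3 called genes were named per direction, those that moved most, plus the paralogs SPRY1, SPRY3, SPRED3, ETV1, DUSP1, DUSP2, DUSP7 and DUSP9. A gene that this rule names is not reported here. Alternatives covered scaling, DESeq2 1.42.0, the filter, single libraries left out, the set as a replicate block, VM sets, 2-group fits and each siRNA alone. The fits of labelled libraries without the block, of the VM sets with the library headed 1VM, and of siRNA numbers without DMSO_siNT 4-2V were chosen after seeing the data.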

Additional observations from a re-analysis of the deposited data

Results flagged for a closer look

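Each group of 6 libraries was searched for a value far from the others, as the gap to the nearest library over the range of the group on the log2 scale. In 39 sets of values (the 10 feedback genes, HRAS, ESR1 and SMARCA4 in 3 groups), 4 exceeded the 95% limit, where chance gives 1.95. The DMSO_siNT library 4-2V was the lowest for ESR1 (gap 0.937 of the range, 29.5 CPM), for HRAS (0.853, 436 CPM) and for SPRY4 (0.666, 12.8 CPM). The 4OHT_siSMARCA4 library 4-3V was the lowest for HRAS (0.671, 3231 CPM). In that library ESR1 was at 2651 CPM, the highest of its group, so the symbols did not move together there.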

How the results depend on the processing

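The count of feedback genes lower with SMARCA4 siRNA, 2 in the report, was 4 without DMSO_siNT 4-2V, 4 with only the 2 groups compared in the fit, 5 in VM sets only, 5 with the library headed 1VM added to these, and 1 each with siNT 4 only and siSMARCA4_4 only. Leaving out 1 library at a time gave 2 to 4. Calls over all genes moved too. Those lower were 742 of 13136 in the report, 1714 of 13276 without DMSO_siNT 4-2V and 1720 of 12673 with 2 groups. They were 1666 of 13615 in VM sets and 2239 of 13384 with the library headed 1VM added. With siNT 4 only they were 278 of 13296, and with siSMARCA4_4 only 142 of 13624. The other counts of feedback genes kept within 1.5 times under the alternatives run, with 8 to 9 higher in 4OHT_siNT against DMSO_siNT when single libraries were left out, and no estimate that was called changed sign. DUSP4 kept its call in all 3 group comparisons under each alternative. The causes were not tested. With sets entered as a replicate block, 8 feedback genes were higher in 4OHT_siNT against DMSO_siNT and 2 lower with SMARCA4 siRNA, while HRAS (1.05, adjusted p = 0.0548), ESR1 (1.36, 0.145) and SPRED1 (0.24, 0.213) lost their calls in the first comparison, and SPRED1 (0.23, 0.243) in 4OHT_siSMARCA4 against DMSO_siNT. Calls over all genes with SMARCA4 siRNA went from 655 higher and 742 lower to 85 and 151 under the block, and were 385 and 538 for the same libraries without it. Libraries with the same set label correlated in their deviations at a median r of 0.035 over 15 pairs (−0.286 to 0.299, 5 above 0.1), so the set was not used to pair them. ESR1 in 4OHT_siSMARCA4 against DMSO_siNT (1.17, adjusted p = 0.0395) lost its call when any 1 of 6 libraries was left out, under the block, for the labelled libraries without it, with only the 2 groups compared and with either SMARCA4 siRNA alone, at adjusted p from 0.0551 to 0.156.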
